A study of Mus musculus with 6 samples.

Results

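The genes described are 10 enzymes of glycolysis and of lactate formation: the hexokinases Hk1 and Hk2, the glucose 6-phosphate isomerase Gpi1, the phosphofructokinase Pfkl, the aldolase Aldoa, the triose phosphate isomerase Tpi1, the phosphoglycerate kinase Pgk1, the enolase Eno1 and the lactate dehydrogenases Ldha and Ldhb. They were taken by name, and a gene was measured where the platform annotation gave at least 1 probe set with that symbol alone. This held for 8 of the 10 genes, among 18193 genes with such a probe set in all. The 8 genes had 22 probe sets (a probe set is a group of short probes to 1 transcript that gives 1 value). No probe set carried Gpi1 or Eno1 as its only symbol, so these enzymes were not analysed here. Hk2 lay under the filter on dim genes, which left 7 genes in the test across 10916 genes.

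The data are 6 arrays of thymocytes sorted by their CD4 and CD8 surface proteins, 2 arrays for each of 3 stages: DP (CD4+CD8+), CD4intCD8+ and CD8SP. All 3 stages came from the same kind of mouse, N15 TCR tg+/+ RAG-2-/- H-2b, aged 5 to 6 weeks; 6 mice were used for a pair of independent experiments. All cells therefore carried a transgenic T cell receptor and lacked Rag2, without which a mouse cannot rearrange receptor genes of its own, so that the stages are those of cells with 1 receptor that mature towards the CD8 lineage. Which animals gave which array is not stated, so the p-values reflect array-to-array spread, which may be technical. With sorted bulk samples fewer cells of a type and less RNA per cell cannot be told apart.

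Glycolysis splits glucose into pyruvate in the cytosol and yields ATP without oxygen. Hexokinase traps glucose in the cell, phosphofructokinase commits it to the pathway, aldolase cuts the sugar into a pair of triose phosphates that triose phosphate isomerase interconverts, and phosphoglycerate kinase makes ATP. Lactate dehydrogenase converts pyruvate and lactate into each other and is a tetramer of A and B subunits, the products of Ldha and Ldhb: the A subunit is typical of muscle and of proliferating cells, the B subunit of heart and other tissues that burn lactate. In the thymus, dividing precursors take up much glucose, while most DP cells are small resting cells.

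The deposited values are linear intensities. The array medians lay between 24.9 and 25.7, and 3.60% of values were below 0. The sorted stages matched their labels in most markers: the intensity of Rag1, needed for receptor gene rearrangement, was 1046 and 1054 on the DP arrays and at most 134 later, and Itgae, a marker of CD8 maturation, went from 61.3 and 41.6 in DP through 368 and 278 to 1211 and 1030 in CD8SP. All 5 tested DP markers were called lower at both later stages, where 4.84% and 8.35% of all genes were. Of 7 maturation markers 3 were called higher in CD4intCD8+ and 6 in CD8SP, against 6.86% and 11.5% of all genes. The CD8 genes Cd8a (3153 and 3566 in DP, 1794 and 1608 in CD8SP) and Cd8b1 (3601 and 3814, then 2448 and 2144) were among those that fell. Cd4 had intensities of 351 and 515 in DP but of −33.0 and 11.8 on the CD4intCD8+ arrays, so its RNA was near background there. The ratio of the 3′ to the 5′ actin control probes, a measure of RNA integrity that rises with degradation, stood at 1.98 and 2.14 on the DP arrays, at 2.37 and 3.47 on those of CD4intCD8+ and at 2.28 and 2.62 on those of CD8SP. It was higher on every later array than on both DP arrays, so that every change from DP coincided with it. The same ratio of the Gapdh controls overlapped between stages, at 1.37 and 1.53 for DP, 1.42 and 1.99 for CD4intCD8+ cells, then 1.40 and 1.48 for CD8SP. The second CD4intCD8+ array was highest by both ratios. Summed marker intensities of erythroid cells were 155 to 198, 129 to 146 and 156 to 187 in the 3 stages, with 0 of 2 tested markers called; lists for myeloid cells, thymic epithelial cells and double-negative thymocytes had 0 called as well. Single markers rose on other lists: Cd74 (29.5 and 33.2 in DP, 110 and 143 in CD8SP) among those of dendritic cells, Cd79b (31.9 and 34.9 in DP, 68.5 and 66.0 in CD8SP) among those of B cells and Gzma (978 and 852 in DP, 2345 and 2672 in CD8SP) among those of natural killer cells. Among the defining markers Itgax, Cd79a and Klra8 stayed at or below 31.9, 15.8 and 9.43 on all arrays, whereas the B cell marker Ms4a1 gave 92.1 and 127 in DP and 124 and 119 in CD8SP, and the natural killer cell marker Ncr1 gave 25.5 and 22.9 in DP and 51.6 and 23.9 in CD8SP. Cd74, Cd79b and Gzma were each 1 of 2 tested markers of their lists. The other tested marker of natural killer cells, Prf1, went the other way, uncalled, with 109 and 81.0 in DP and 57.6 and 65.7 in CD8SP. That of dendritic cells, Zbtb46, gave 32.1 and 29.4 in DP and 35.6 and 39.1 in CD8SP. The summed intensity of the list went from 146 to 150 in DP to 225 to 261 in CD8SP for dendritic cells, from 173 to 214 to 245 to 247 for B cells and from 957 to 1116 to 2454 to 2771 for natural killer cells, mostly Gzma. No list had a marker at or below 0 on every array. The part of other cells in the results was not tested.

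The enzymes did not move as a block. Ldhb fell and Tpi1 rose from DP to both later stages, while Ldha, Aldoa and Pgk1 differed little between stages. Changes are given on the scale log2(intensity + 5.84), with limma's standard error (SE) and a p-value adjusted by the Benjamini-Hochberg method over the 10916 genes tested; a gene is called at an adjusted p under 0.05. From DP to CD4intCD8+, 1 of the 7 tested genes rose (Tpi1), 1 fell (Ldhb) and 5 were not called; of all genes tested, 6.86% rose and 4.84% fell. From DP to CD8SP, 2 rose (Tpi1, and Pfkl by its brightest probe set), 1 fell (Ldhb) and 4 were not called, against 11.5% and 8.35% of all genes. Between CD4intCD8+ and CD8SP limma called 0 of the 7, with 1 (Ldhb) at an unadjusted p under 0.05, and 0.119% of all genes. With CD4intCD8+ set against the mean of DP and CD8SP it called 0 of 7, with 2 (Hk1 and Ldhb) at an unadjusted p under 0.05, and 0.00916% of all genes. The median change of the 7 genes from DP to CD8SP was 0.00, and that of all genes tested was 0.01. In a fit blocked by replicate number, 2562, 227 and 3277 of all genes were called for CD4intCD8+ against DP, CD8SP against CD4intCD8+ and CD8SP against DP, in place of 1277, 13 and 2166, and 215 in place of 1 for CD4intCD8+ against the others. Since 7 genes are few, these counts describe the genes named and not glycolysis as a whole.

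**Figure D1:**
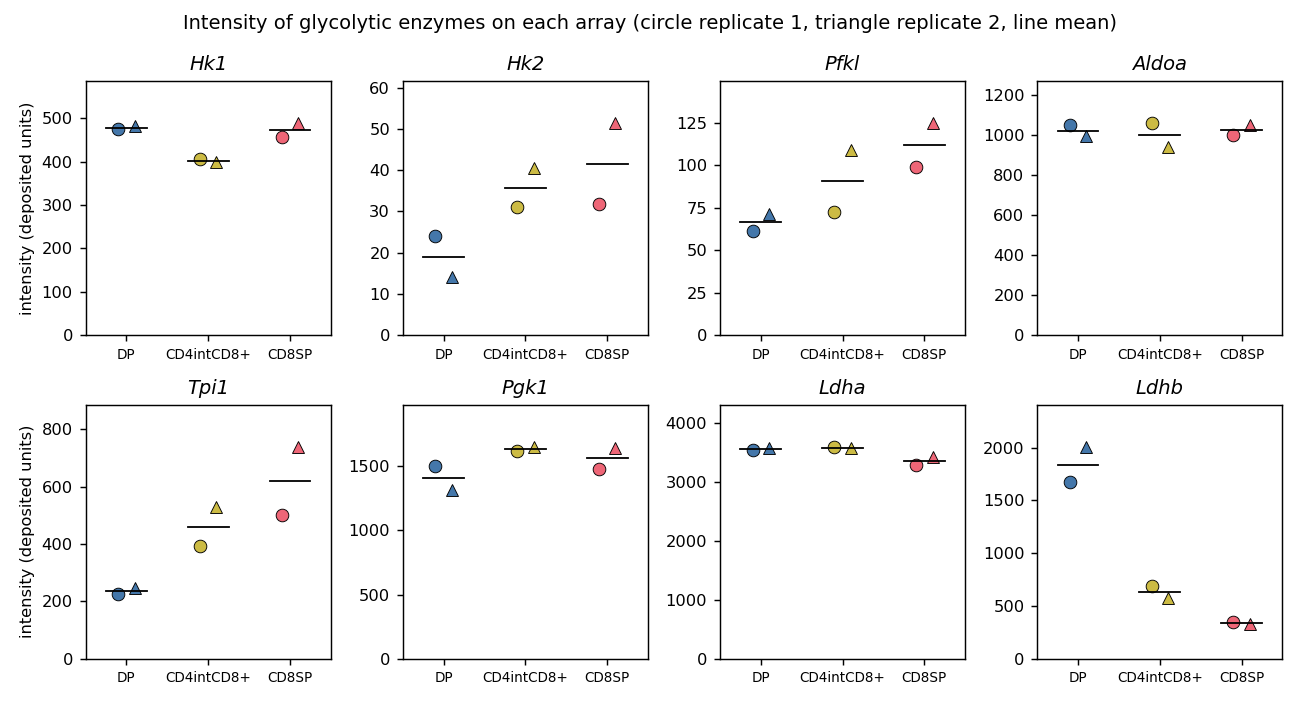
Intensity of the 8 measured genes on each of the 6 arrays, by the probe set with the highest mean, on a linear axis from 0 in deposited units. Circles are replicate 1, triangles replicate 2 and bars the stage mean of 2 arrays; Ldhb falls from 1674 and 2006 in DP to 349 and 330 in CD8SP, and Tpi1 rises from 224 and 248 to 502 and 737, while Ldha stays between 3293 and 3596.

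Hexokinase catalyses the first step. Hk1, the housekeeping isozyme of most cells, had intensities of 476 and 481 for DP, 406 and 398 for CD4intCD8+ cells, then 457 and 488 for CD8SP. Both middle values lay below all the others. Its second, dimmer probe set did not repeat this, with 34.8 and 46.7 for DP, 36.9 and 38.0 for CD4intCD8+ cells, then 39.8 and 33.4 for CD8SP, and a difference of −0.03 between CD4intCD8+ and the mean of DP and CD8SP. The stage means of the brighter probe set were 478 ± 3.62, 402 ± 5.34 and 472 ± 21.8 (SD, n = 2 each). Its difference between CD4intCD8+ and the mean of DP and CD8SP was −0.24 ± 0.10 (SE), which limma did not call (unadjusted p = 0.0400, adjusted p = 0.374). Hk2, the isozyme that growing and insulin-responsive cells induce, was dim: 23.9 and 14.1 in DP cells, 31.0 and 40.6 in CD4intCD8+ cells and 31.7 and 51.3 in CD8SP cells. Its later arrays were all above both DP arrays, but its mean lay under the filter, an intensity of about 30.8. In the fit with no filter its change from DP to CD8SP was 0.92 ± 0.30 (limma, adjusted p = 0.0812), which was not called. The intensities of different probes are not levels that can be set against each other, but their log2 difference within an array can be followed. Hk2 minus Hk1 was −4.02 and −4.61 for the DP arrays, −3.48 and −3.12 for CD4intCD8+ and −3.63 and −3.11 for CD8SP. It was higher on all 4 later arrays. The size rests on the dim Hk2 values in DP: it was 1.01 for CD4intCD8+ and 0.94 for CD8SP, and 0.65 and 0.54 with a pseudocount of 32 (exact permutation test, two-sided, p = 0.333 for each, the smallest that 2 arrays against 2 can give).

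Pfkl, the liver-type subunit of phosphofructokinase, was read by probe sets that did not go the same way. The brightest gave 61.2 and 71.5 in DP, then 72.8 and 109 in CD4intCD8+, and 99.0 and 125 in CD8SP, with no overlap between DP and CD8SP. Its change from DP to CD8SP was 0.70 ± 0.21, 1.62-fold (limma, adjusted p = 0.0472), and from DP to CD4intCD8+ 0.40 ± 0.21 (adjusted p = 0.250). The second gave 56.3 and 64.1 in DP and 76.2 and 96.2 in CD8SP. The third, whose name has no suffix, ran the other way, from 49.6 and 43.4 in DP to 35.4 and 27.0 in CD8SP. In the fit of all probe sets their changes were 0.70, 0.47 and −0.51, with adjusted p = 0.0622, 0.129 and 0.187, so that none was called. The gene's call rests on the choice of its brightest probe set: it held under 7 of 17 alternative settings, was lost without either DP array (adjusted p = 0.224 and 0.112) or either CD8SP array (0.0594 and 0.234), and turned to −0.51 (adjusted p = 0.173) with the probe set whose name has no suffix.

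Aldoa, which cleaves fructose 1,6-bisphosphate, had intensities of 1050 and 992 for DP, 1056 and 941 for CD4intCD8+ cells, then 1000 and 1047 for CD8SP, which overlap throughout. Its change from DP to CD8SP was 0.00 ± 0.10, with a 95% interval from −0.23 to 0.24. Pgk1, the first ATP-forming enzyme of the pathway, gave 1500 and 1316 in DP cells, 1619 and 1648 in CD4intCD8+ cells and 1475 and 1643 in CD8SP cells. Both CD4intCD8+ values were above both DP values, but the change of 0.22 ± 0.10 was not called (limma, adjusted p = 0.199). From DP to CD8SP the interval of Pgk1 ran from −0.08 to 0.38. By these probe sets the intervals from DP to CD8SP leave room for a rise of up to 0.24 for Aldoa and 0.38 for Pgk1 in log2 units. The interval of Pgk1 from DP to CD4intCD8+ reached 0.446. Another probe set of Aldoa had an interval up to 0.453 from DP to CD8SP.

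Tpi1, which interconverts the pair of triose phosphates so that both can be used, was the one enzyme of the 8 whose probe sets were all called as higher. Its brightest probe set gave 224 and 248 in DP, then 391 and 527 in CD4intCD8+, and 502 and 737 in CD8SP. Every later array was above both DP arrays, and the later stages overlapped each other. The stage means were 236 ± 16.7, 459 ± 96.1 and 620 ± 166 (SD, n = 2 each). The rise from DP to CD4intCD8+ was 0.93 ± 0.20, 1.90-fold (limma, adjusted p = 0.0215), and from DP to CD8SP 1.35 ± 0.20, 2.54-fold (adjusted p = 0.00231); 195 of the 10916 tested genes had a larger rise to CD8SP. The further difference of 0.42 ± 0.20 between CD4intCD8+ and CD8SP was not called (adjusted p = 0.560). Within replicates 1 and 2 Tpi1 was higher in CD4intCD8+ by 0.79 and 1.07, and in CD8SP by 1.14 and 1.55. In each stage the array of replicate 2 was the higher one, by 0.14, 0.42 and 0.55.

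The call of Tpi1 for CD8SP held under all 17 alternative settings, while that for CD4intCD8+ held under 12. It was lost with the actin ratio as a covariate, where the change was 0.45 (adjusted p = 0.335), without either DP array (adjusted p = 0.128 and 0.0863), without the second CD4intCD8+ array, whose actin ratio was 3.47 (adjusted p = 0.1003), and with no intensity trend (adjusted p = 0.0507).

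Ldhb, the B subunit, showed the largest change of the genes described. Its intensities were 1674 and 2006 for DP, 688 and 577 for CD4intCD8+ cells, then 349 and 330 for CD8SP. The 3 stages did not overlap. The stage means were 1840 ± 235, 633 ± 78.4 and 339 ± 13.4 (SD, n = 2 each). Ldhb fell by 1.53 ± 0.13 from DP to CD4intCD8+, 2.89-fold (limma, adjusted p = 0.000945), and 5.33-fold from DP to CD8SP (log2 change −2.41 ± 0.13, adjusted p = 2.52e-05, 95% interval −2.72 to −2.11). Of the 10916 genes tested, 23 had a larger fall over the first comparison and 16 over the whole course. Between CD4intCD8+ and CD8SP it was lower by a further 1.84-fold (log2 change −0.88 ± 0.13, adjusted p = 0.0657), which was not called. With the replicate number as a block that step was called (adjusted p = 0.00686), likewise after quantile normalization (adjusted p = 0.0464) and with the actin covariate (adjusted p = 0.0163). Within replicates 1 and 2 Ldhb was lower in CD8SP than in DP by a log2 change of −2.24 and −2.58. Its calls against DP held under all 17 alternative settings.

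Ldha, the A subunit, gave 3554 and 3577 in DP cells, 3596 and 3580 in CD4intCD8+ cells and 3293 and 3425 in CD8SP cells. The CD8SP arrays were the lowest, and all 6 values lay close together. The mean of Ldha was at percentile 99.5 of the genes tested; whether so bright a probe set was near saturation, which would flatten its differences, was not tested. The change was 0.01 ± 0.07 from DP to CD4intCD8+ (95% interval −0.14 to 0.16) and −0.09 ± 0.07 from DP to CD8SP (−0.24 to 0.06), with adjusted p = 0.947 and 0.408 by limma. The sign of the CD8SP value turned to 0.08 after quantile normalization. The difference Ldha minus Ldhb in log2 units was 1.08 and 0.83 for the DP arrays, 2.38 and 2.62 for CD4intCD8+ and 3.22 and 3.35 for CD8SP. It was higher at each later stage without overlap, by 1.54 for CD4intCD8+ and 2.33 for CD8SP against DP (exact permutation test, two-sided, p = 0.333 for each, the smallest possible). The array values do not give their ratio in the cell.

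**Figure D2:**
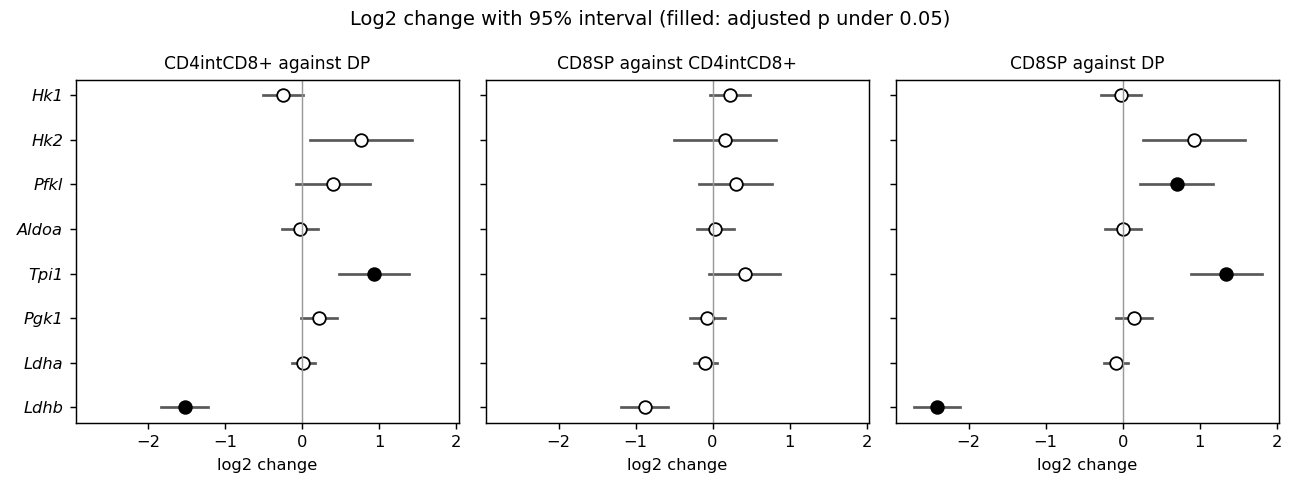
Log2 change of each measured gene in each pair of stages, with 95% intervals from limma; the vertical line is no change, filled points have an adjusted p under 0.05 and Hk2 comes from the fit with no filter. Ldhb lies at −1.53 and −2.41 against DP, Tpi1 at 0.93 and 1.35, and the intervals of Ldha, Aldoa and Pgk1 cover 0.

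The regions before the transcription starts of Ldha, Ldhb and Tpi1 are printed because the isozymes and Tpi1 followed different courses. They are the 250 bases before a RefSeq start in the build GRCm38.p6, 5′ to 3′ on the gene's strand. Capitals mark ACGTG on either strand, a form of the core recognised by hypoxia-inducible factors, or CACGTG, which contains ACGTG on both strands. CACGTG is the E box recognised by MYC and related factors. The other form of that core, GCGTG, was not searched, and the Ldhb window holds it unmarked. Windows of other genes that are not printed, Hk1 and Pfkl among them, hold it too.

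Ldha, chr7:46845554-46845803, plus strand: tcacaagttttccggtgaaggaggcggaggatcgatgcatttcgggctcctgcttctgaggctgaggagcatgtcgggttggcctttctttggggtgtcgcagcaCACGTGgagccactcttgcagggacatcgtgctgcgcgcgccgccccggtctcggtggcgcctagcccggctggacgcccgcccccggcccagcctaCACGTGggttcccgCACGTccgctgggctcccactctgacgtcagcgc

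Ldhb, chr6:142507958-142508207, minus strand: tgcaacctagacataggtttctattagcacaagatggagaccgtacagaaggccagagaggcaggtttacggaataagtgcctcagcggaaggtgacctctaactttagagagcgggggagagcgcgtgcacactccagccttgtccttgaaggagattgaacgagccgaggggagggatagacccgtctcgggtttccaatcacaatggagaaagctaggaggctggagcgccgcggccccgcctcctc

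Tpi1, chr6:124814159-124814408, minus strand: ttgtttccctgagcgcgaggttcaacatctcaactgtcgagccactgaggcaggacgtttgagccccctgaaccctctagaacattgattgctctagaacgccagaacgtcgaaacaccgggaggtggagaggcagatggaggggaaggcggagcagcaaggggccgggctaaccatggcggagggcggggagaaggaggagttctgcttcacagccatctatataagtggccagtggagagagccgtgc

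The Ldha window held CACGTG in 2 places and 5 matches to ACGTG counted over both strands, the nearest 29 bases before the start, with a GC content of 67.2% and 25 CpG dinucleotides. The second RefSeq start of Ldha had no match in its window. The windows of Ldhb and Tpi1 held no match, with a GC content of 56.4% and 58.4%. Of the 8 measured genes, Ldha, Pgk1, Hk2 and Aldoa had ACGTG in at least 1 window and Hk1, Pfkl, Tpi1 and Ldhb had none; Ldha alone had CACGTG. Counted by window, 5 of the 12 windows of these genes held ACGTG, 2 of them overlapping windows of Aldoa that share a site. Among all 32851 windows of the RefSeq table, 16.6% held ACGTG and 6.02% held CACGTG, with a median GC content of 52.4%. A match is not a bound site, and the absence of one says only that these letters are not in the window.

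The separate probe sets of a gene were compared in a fit of all 20967 probe sets that passed the filter, as all 22 probe sets of these genes did. From DP to CD4intCD8+, 3 of the 22 rose (all 3 of Tpi1) and 4 fell (all 4 of Ldhb), against 7.45% of all probe sets called in either direction. The 3 calls of Tpi1 in this comparison were lost without either DP array, without the second CD4intCD8+ array, with no intensity trend and with the actin covariate, which left the 4 of Ldhb. From DP to CD8SP the same 3 and 4 were called, against 13.9% of all. In the blocked fit 2 Pfkl probe sets and that of Hk2 were called higher as well, and between CD4intCD8+ and CD8SP all 4 of Ldhb were called lower, where the unblocked fit called 0. The 4 Ldhb probe sets changed by −1.49 to −1.66 over the first comparison and by −2.27 to −2.53 over the whole course. Those of Tpi1 changed by 0.93 to 1.15 and by 1.35 to 1.50. The 5 Aldoa probe sets ranged from 0.00 to 0.19 from DP to CD8SP and the 3 of Pgk1 from 0.11 to 0.15, with none called. Ldha had 1 probe set, so its value has no such check. Probe sets of a gene share its transcript and are not replicates, and 19 of the 22 have names ending in _x_at or _a_at, which mark possible cross-hybridisation with similar sequences or recognition of several transcripts.

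**Figure D3:**
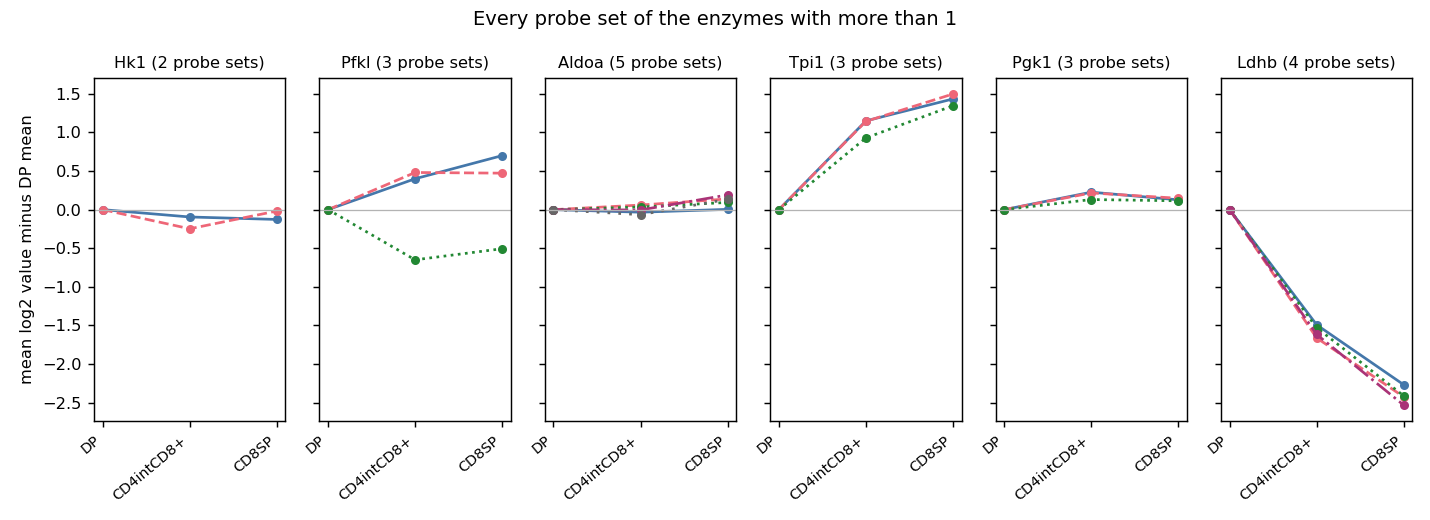
Mean log2 value of each probe set in each stage minus its DP mean, for the 6 genes with more than 1 probe set; each line is 1 probe set and each point a mean of 2 arrays. The 4 Ldhb probe sets lie together below 0, the 3 of Tpi1 above 0, and those of Pfkl end on both sides of 0.

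Gapdh, the step between Tpi1 and Pgk1, was present only as a control and was left out of the fit. Its 3′ control gave 3024 and 3329 in DP, then 3124 and 3351 in CD4intCD8+, and 2769 and 2956 in CD8SP, which are given as values with no test. By this 3′ probe set the stages DP and CD4intCD8+ overlapped and CD8SP was lowest. By the 5′ control the second CD4intCD8+ array was lowest, at 1688 against 1973 and 2000 in CD8SP, and by the middle control the second CD8SP array (2642) lay above the first DP array (2557).

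Other enzymes and isozymes of the pathway were split in direction too. Of 17 listed, 8 were tested. From DP to CD8SP, 2 rose and 2 fell, with a median of 0.04; these counts too stand beside the shares over all genes, 11.5% higher and 8.35% lower. Without either DP array or the first CD8SP array 2 rose and 0 fell. Eno3, the muscle-type enolase, had intensities of 39.8 and 28.6 for DP, 92.8 and 85.1 for CD4intCD8+ cells, then 132 and 92.6 for CD8SP. It rose by 1.26 ± 0.21 to CD4intCD8+ and by 1.55 ± 0.21 to CD8SP (limma, adjusted p = 0.00950 and 0.00152). Pgam1, the phosphoglycerate mutase, rose from 602 and 646 in DP to 894 and 959 and then 970 and 1009, by 0.57 ± 0.10 and 0.66 ± 0.10 (adjusted p = 0.0123 and 0.00305). Pfkm, the muscle-type phosphofructokinase, fell from 94.2 and 94.7 in DP to 54.2 and 63.9 in CD8SP (−0.63 ± 0.16, adjusted p = 0.0235). Bpgm, which makes 2,3-bisphosphoglycerate and is best known from red cells, fell from 365 and 369 to 233 and 249 (−0.60 ± 0.12, adjusted p = 0.0106). From DP to CD4intCD8+ the 2 called genes of this list were Eno3 and Pgam1, beside 6.86% of all genes higher and 4.84% lower. With the replicate number as a block 3 rose and 1 fell. Pgam1 kept its call for CD8SP under all 17 alternative settings, and Eno3 kept its own under the 16 in which it was tested. With the filter at the 60th percentile Eno3 and Pfkm dropped out of the fit, and 1 gene of the list rose and 1 fell to CD8SP. Pfkm and Bpgm each lost their calls without either DP array or without the first CD8SP array. For CD4intCD8+ Eno3 lost its call without the second DP array (adjusted p = 0.0700), and Pgam1 without either DP array or the second CD4intCD8+ array and with the actin covariate (0.0581 to 0.158).

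The lists for the steps around the pathway, like those that follow, stand beside 11.5% of all genes higher and 8.35% lower from DP to CD8SP. The shares from DP to CD4intCD8+ were 6.86% and 4.84%. Of the bifunctional enzymes that set fructose 2,6-bisphosphate, the activator of phosphofructokinase, Pfkfb2 fell from DP to CD8SP (−0.57 ± 0.17, adjusted p = 0.0414 by limma) and 3 of 4 were not called; its call was lost under 6 of 15 alternatives, among them leaving out any DP or CD8SP array. Of 6 tested transporters, the glucose transporters Slc2a3 (0.57 ± 0.17, adjusted p = 0.0421) and Slc2a1 (0.45 ± 0.14, adjusted p = 0.0498) rose to CD8SP. The Slc2a1 call was lost under 14 of 17 alternatives, among them leaving out any 1 array, and that of Slc2a3 under 8 of 16, among them leaving out the first DP array or either CD8SP array (adjusted p from 0.0523 to 0.577 over the 8), and of its other probe sets 1 gave 0.61 (adjusted p = 0.0431 in the fit of probe sets) and 2 that lay under the filter gave −0.11 and −0.35. Of 10 tested genes for pyruvate entry into mitochondria, Pdha1, a subunit of pyruvate dehydrogenase, fell to CD8SP (−0.44 ± 0.13, adjusted p = 0.0425, lost under 8 of 17 alternatives, at 0.0555 to 0.249, the same 3 arrays among them); with the replicate number as a block 2 rose and 1 fell. In the fit of probe sets no probe set of Slc2a1, Pfkfb2 or Pdha1 was called from DP to CD8SP. Those of Slc2a1 gave 0.45, 0.49 and 0.14 (limma, adjusted p = 0.0695, 0.0797 and 0.656). The brightest of Pfkfb2 and of Pdha1 had adjusted p = 0.0548 and 0.0531. The single tested gene of gluconeogenesis was not called. None of these lists had a call between DP and CD4intCD8+, apart from 1 rise for pyruvate entry in the blocked fit and with the filter at the 60th percentile.

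Of 6 tested genes of the pentose phosphate pathway, which branches from glucose 6-phosphate and yields NADPH and ribose, 3 rose from DP to CD8SP and none fell, with a median of 0.31, against 11.5% higher and 8.35% lower over all genes; without the first DP array or without the second CD8SP array 1 of the 3 was called. Pgls rose by 0.68 ± 0.15, Pgd by 0.60 ± 0.12 and Tkt by 0.60 ± 0.09 (limma, adjusted p = 0.0134, 0.00926 and 0.00234). Pgd went from 384 and 421 in DP to 578 and 652 in CD8SP, with no overlap. Without the first DP array or the second CD8SP array Pgd (adjusted p = 0.0671 and 0.0694) and Pgls (0.0676 to 0.0940) lost their calls, Pgls without the second DP array as well. Tkt, a transketolase that links this pathway back to glycolysis, had already risen in CD4intCD8+ (0.49 ± 0.09, adjusted p = 0.0116), where it was the 1 gene called, or 1 of 2 in the fit blocked by replicate. That earlier call was lost under 6 of 17 alternatives (adjusted p from 0.0623 to 0.192), without either DP array or the second CD4intCD8+ array among them. The other probe sets of Tkt gave 0.99 (adjusted p = 0.000975 in the fit of probe sets) and −0.20 from DP to CD8SP. With the mean of a gene's probe sets the Tkt call for CD8SP was lost (limma, adjusted p = 0.0659).

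Of 15 tested regulators of glycolytic genes, 2 rose and 2 fell from DP to CD8SP, close to the shares of 11.5% and 8.35% over all genes. Myc, a transcription factor that induces glycolytic genes in activated T cells, went from 43.8 and 27.8 in DP to 95.4 and 116 in CD4intCD8+ and 201 and 171 in CD8SP. It rose by 1.44 ± 0.21 and by 2.23 ± 0.21 (limma, adjusted p = 0.00586 and 0.000278). Mxi1, which competes with MYC for their shared partner MAX, fell from 342 and 343 in DP to 186 and 189 and then 131 and 141 (−1.30 ± 0.13 to CD8SP, adjusted p = 0.000339). Egln3, a prolyl hydroxylase that marks hypoxia-inducible factor for breakdown, fell by 1.06 ± 0.15 to CD8SP (adjusted p = 0.00175). Foxo1, a transcription factor of resting T cells, rose by 0.93 ± 0.12 (adjusted p = 0.00125). Hif1a itself, with 586 and 501 in DP and 503 and 442 in CD8SP, was not called (−0.20 ± 0.13, adjusted p = 0.336). From DP to CD4intCD8+, where 6.86% of all genes rose and 4.84% fell, 1 regulator rose and 3 fell. Mxi1 (−0.85 ± 0.13, adjusted p = 0.00695), Egln3 (−0.57 ± 0.15, adjusted p = 0.0403) and Txnip, a brake on glucose uptake (−0.69 ± 0.13, adjusted p = 0.0129), fell and Myc rose. Of these earlier calls Mxi1 was lost without the second DP array (adjusted p = 0.0556), Txnip under 5 of 17 alternatives (0.0623 to 0.209; without either DP array or the second CD4intCD8+ array among them) and Egln3 under 10 of 17, any left-out array among them (0.0509 to 0.189). In CD8SP Txnip stood at −0.37 against DP, which was not called (limma, adjusted p = 0.0949 in the fit of probe sets). Its second probe set was called at neither stage (adjusted p = 0.110 for CD4intCD8+ and 0.320 for CD8SP). In the blocked fit 1 regulator rose between CD4intCD8+ and CD8SP. Myc kept both calls and Mxi1, Egln3 and Foxo1 kept theirs for CD8SP under every setting tried.

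**Figure D4:**
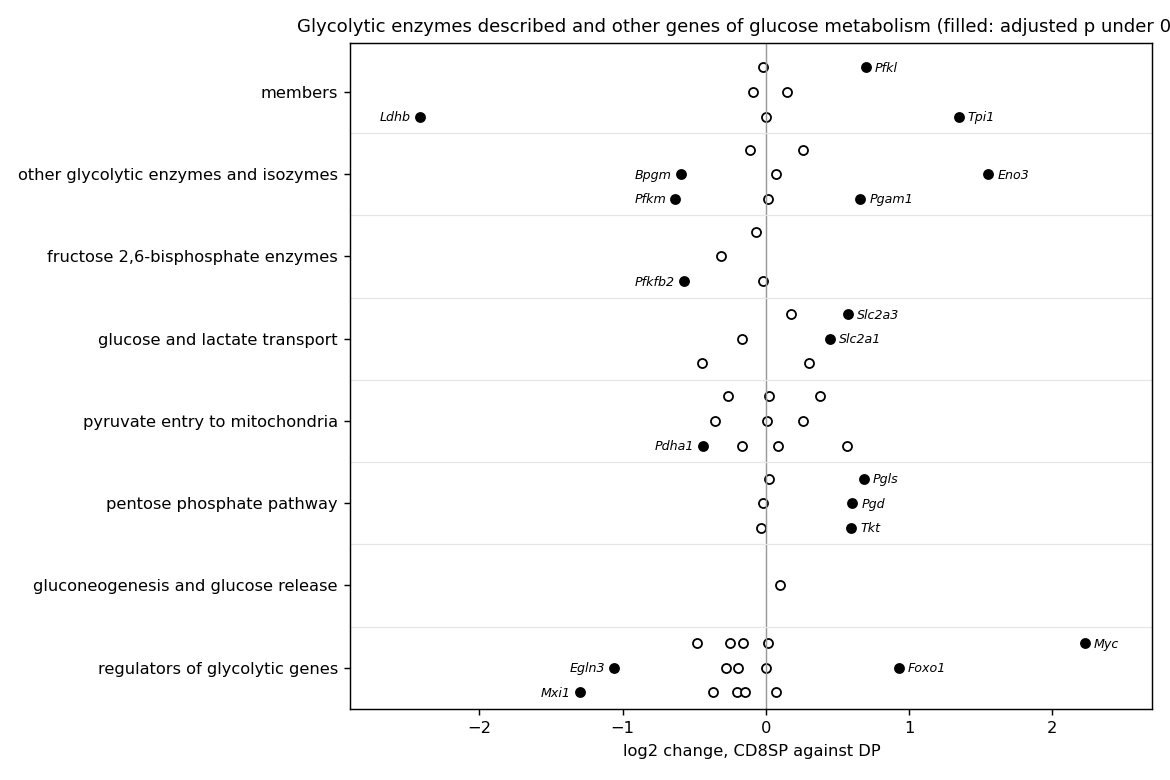
Log2 change from DP to CD8SP of the tested genes described here (top row) and of the other gene lists of glucose metabolism. Each point is 1 gene, filled where the adjusted p was under 0.05; filled points lie on both sides of 0 for the glycolytic enzymes and the regulators, and above 0 for the transporters and the pentose phosphate pathway.

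Some genes of DNA replication and division also rose from DP to the later stages. Of 19 tested, 10 rose and 0 fell from DP to CD4intCD8+ (median 0.71), against 6.86% and 4.84% of all genes. To CD8SP 9 rose and 0 fell (median 0.65), against 11.5% and 8.35%. Between the later stages 0 were called, against 0.119% of all genes, and the median was −0.14. Tpi1 differed by 0.42 there, which limma did not call (adjusted p = 0.560). Cdc6, a factor that licenses replication origins, went from 63.4 and 84.7 in DP to 194 and 406 in CD4intCD8+ and 207 and 312 in CD8SP. Mcm3, a subunit of the replicative helicase, went from 208 and 214 to 468 and 643 and then 489 and 597. Like Tpi1, both had the higher value in replicate 2 in every stage. With the replicate number as a block 17 and 14 of the 19 rose; without the first DP array 1 and 4 did, without the second DP array 2 rose to CD4intCD8+, without the second CD4intCD8+ array 6 and without the first 17, and 2 rose with the actin covariate to CD4intCD8+. The part of cell division and of RNA integrity in the rise of Tpi1 was not tested.

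The genes whose course over the 6 arrays was closest to that of Ldhb were sought among 10909 other tested genes, by the root mean square difference of log2 values centred on each gene's mean. They were Ssbp2 (0.146), Bcl6 (0.149) and Tsc22d1 (0.173). Bcl6, a transcriptional repressor, had intensities of 606 and 601 in DP cells, 190 and 216 in CD4intCD8+ cells and 110 and 101 in CD8SP cells. Ssbp2 went from 1455 and 1574 to 583 and 610 and then 335 and 328. The genes closest to Ldha were Rpl19 (0.0119), a ribosomal protein, Psmc3 (0.0120), a proteasome subunit, and Nipsnap1 (0.0129), with changes from DP to CD8SP of −0.09, −0.08 and −0.11. A small difference is easily reached by genes that hardly vary, so closeness to Ldha says little more than that.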

How the data were processed

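The authors deposited 1 linear intensity per probe set and array (45101 rows, 64 of them controls). Their software, scaling and normalization are not given in the sources used here; 9720 values below 0 show that a background had been subtracted, which limits what dim probe sets can show. Depth does not apply to arrays; their number, 2 per stage, limits the precision.

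Stage and replicate number came from the sample titles. Values under 0 were set to 0 and the intensities taken as log2(intensity + 5.84), the pseudocount being the 10th percentile of positive deposited values. The probe set with the highest mean stood for a gene, and the dimmest 40% of genes by mean were left out (7277 of 18193). Stages were compared with limma 3.58.1 in R 4.3.3 (lmFit, eBayes with intensity trend, all 6 arrays) and Benjamini-Hochberg adjustment within each comparison. The script was tested on simulated data. Same-numbered arrays deviated together (r = 0.261, 0.303 and 0.205 across genes for the 3 pairs of stages) and the labels name a pair of experiments, so the numbers were taken to pair the arrays. Replicate 2 also had the higher actin and Gapdh ratio in each stage, and the part of RNA integrity in these correlations was not tested. The main fit left the pairing out, so its calls and missing calls do not use it. A fit with the number as a block was an alternative. The other alternatives were the pseudocount, filter, normalization, choice of probe set, trend, actin ratio, arrays fitted and each array left out.

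Named are all 10 enzymes, up to 4 called genes per list and comparison with the largest change, and the 3 genes closest to Ldha and Ldhb. The enzymes and lists were chosen with earlier results of these data known. Probe sets were named from GEO's platform annotation; 1 probe set that Hk1 shares with other genes was left out. Promoter windows are from RefSeq (GRCm38.p6) and all 8 measured genes matched. RefSeq proteins and a genome were not used here.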

Additional observations from a re-analysis of the deposited data

How the results depend on the processing

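The 7 tested enzymes were compared with 17 alternatives in 469 values, of which 427 kept direction and side of the threshold, 14 lost a call, 3 gained one, 24 changed sign while uncalled in both, and 1 reversed: Pfkl from DP to CD8SP, at −0.51 (adjusted p = 0.173) with the brightest probe set lacking a name suffix. Counts of called enzymes were 1 with no intensity trend and 1 with the actin covariate from DP to CD4intCD8+, against 2, and 1 to 2 with an array left out. From CD4intCD8+ to CD8SP they were 1 with the replicate block, 1 after quantile normalization and 1 with the actin covariate, each time Ldhb, against 0, and 0 to 0 with an array left out. From DP to CD8SP leaving out an array gave 2 to 3. For CD4intCD8+ against the mean of the others the count was 0 under every alternative run. The replicate block changed no other call of an enzyme in the fit of genes. In the fit of probe sets it called 4 Ldhb probe sets from CD4intCD8+ to CD8SP in place of 0, and from DP to CD8SP 10 in place of 7, the added ones being 2 of Pfkl and that of Hk2.

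Over all genes, 1277 were called from DP to CD4intCD8+: 2562 with the replicate block, 764 with the mean of a gene's probe sets, 801 with no trend, 407 with the actin covariate and 187 to 1399 with an array left out. From CD4intCD8+ to CD8SP 13 were called: 227 with the replicate block, 8 with the filter at the 60th percentile, 2 with the mean of probe sets, 7 with suffix-free probe sets, 34 with the actin covariate, 8 with only the arrays compared and 6 to 70 with an array left out. From DP to CD8SP 2166 were called: 3277 with the replicate block and 1018 to 2345 with an array left out. For CD4intCD8+ against the mean of the others 1 was called: 215 with the replicate block, 2 with a pseudocount of 32, 0 each with no filter, quantile normalization, mean of probe sets and no trend, 6 with the actin covariate and 0 to 61 with an array left out. Why these counts moved was not tested. With 3 residual degrees of freedom and a median SE of 0.17, small changes are not detectable here.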
